A study of Mus musculus with 2 samples.

Results

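Matrix remodeling genes of myeloid cells were followed by symbol in single-cell RNA sequencing of mouse liver: 5 matrix metalloproteinases (Mmp8, Mmp9, Mmp12, Mmp14 and Mmp19), 2 of their inhibitors (Timp1 and Timp2), and the secreted matrix and matricellular proteins Thbs1, Fn1 and Vcan. These are 10 of the 28692 genes in the count tables, and all 10 were found. Mononuclear cells were isolated from livers of C57BL/6 mice on day 14, and each group is 1 library made from 3 pooled mice. The MC38 group was injected in the spleen with 500000 cells of the colon adenocarcinoma line MC38, also of mouse origin, after which the spleen was taken out, a route that seeds tumors in the liver. The control group had received buffer into the spleen and is labelled as having no tumor. The protocol text, the same for both groups, also describes 3000000 MC38 cells under the skin. The control sample is titled SC and the MC38 sample SC+liver, which leaves it unclear whether all mice had that injection. Whether controls lost the spleen is not stated either.

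Matrix metalloproteinases are zinc-dependent enzymes that cut collagens, elastin and other matrix proteins, and tissue inhibitors of metalloproteinases (TIMPs) block them. Neutrophils store Mmp8 and Mmp9 in granules, macrophages are the classical source of Mmp12, and Mmp14 sits in the cell membrane, where it cuts collagen and activates other metalloproteinases. Monocytes and macrophages also secrete fibronectin (Fn1), the proteoglycan versican (Vcan) and thrombospondin 1 (Thbs1), which shape the matrix that they and tumor cells move through.

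The control library held 14258 barcodes and 91617457 UMIs (unique molecular identifiers, 1 per counted RNA molecule), and the MC38 library 19822 barcodes and 114421875 UMIs. Mitochondrial UMIs were over 10% in 74.8% of control and 33.3% of MC38 barcodes, so 3448 control cells (24.2%) and 11855 MC38 cells (59.8%) were kept. Their median depths were 7773 and 4034 UMIs, and 8 kept barcodes occurred in both libraries. Kept cells were assigned to 1 of 21 classes by their score on fixed marker genes (5 to 8 detected per class), which left 424 control and 1112 MC38 cells in none, and class names mean cells like that type. Classical-monocyte-like cells numbered 661 (control) and 3355 (MC38), with median depths of 9347 and 11434 UMIs. Macrophage-like cells numbered 14 and 370, neutrophil-like cells 16 and 222, endothelial-like cells 9 and 32, and tumor-like cells 0 and 66. The score of the best class lay near the threshold for 52 and 179 classical-monocyte-like, 104 MC38 macrophage-like and 34 tumor-like cells. Classical-monocyte-like cells of the MC38 library held a median of 174 UMIs of their own markers, 7 of the neutrophil markers and 5 of the macrophage markers. The tumor-like class rested on 5 of its 8 markers, had a median depth of 1265.5 UMIs, and was led by genes such as Tnnt2, Hmga2, Sparc and Tpm2. Levels below are CPM, the number of UMIs of a gene among every 1000000 UMIs of its class and library. With 1 library per group there was no test and no replicate check, and the 95% intervals (exact Poisson, binomial or conditional) cover counting error only. For a class at 0 UMIs, the level that 3 UMIs would give is stated as the upper limit.

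Mmp8 and Mmp12 are neighbours. Both lie on the plus strand of mouse chromosome 9, Mmp12 at chr9:7344381-7369499 and Mmp8 at chr9:7558456-7568485 (GRCm38, GENCODE M21), 188957 bases apart in a group of 10 metalloproteinase genes. They had the most UMIs of that group, 709 (control) and 15671 (MC38) for Mmp8, and 59 and 2714 for Mmp12. The next was Mmp13 with 12 and 363 UMIs. Because the monocyte-like and macrophage-like classes differed most in these 2 genes, the 250 bases before each RefSeq start are shown (plus strand, GRCm38.p6). Capitals mark matches to GAGGAA, the core of sites bound by PU.1, the factor of the myeloid lineage, which reads TTCCTC on the other strand, and to TGANTCA, bound by AP-1. The windows are Mmp8 at chr9:7558179-7558428, an upstream Mmp12 start at chr9:7344147-7344396, and a second Mmp12 start at chr9:7347124-7347373.
Mmp8: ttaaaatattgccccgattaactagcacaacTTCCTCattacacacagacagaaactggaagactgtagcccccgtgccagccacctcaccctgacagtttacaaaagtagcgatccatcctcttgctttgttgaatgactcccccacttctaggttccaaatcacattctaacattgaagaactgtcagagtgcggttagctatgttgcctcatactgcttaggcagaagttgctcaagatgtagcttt
Mmp12 upstream start: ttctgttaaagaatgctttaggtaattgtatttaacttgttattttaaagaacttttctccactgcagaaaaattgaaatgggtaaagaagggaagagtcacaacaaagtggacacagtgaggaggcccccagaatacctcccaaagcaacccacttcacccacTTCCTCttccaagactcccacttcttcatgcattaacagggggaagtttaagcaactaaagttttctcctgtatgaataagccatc
Mmp12 second start: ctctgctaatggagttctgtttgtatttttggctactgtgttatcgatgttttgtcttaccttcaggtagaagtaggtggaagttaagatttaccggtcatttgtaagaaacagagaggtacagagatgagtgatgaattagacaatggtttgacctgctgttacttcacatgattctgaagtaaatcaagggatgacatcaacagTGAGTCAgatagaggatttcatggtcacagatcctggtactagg
The Mmp8 window held TTCCTC at positions -219 to -214 before the start, and the upstream Mmp12 window held it at -86 to -81. The second Mmp12 window held TGAGTCA at -44 to -38. GAGGAA on either strand occurs in 23.3% and TGANTCA in 6.75% of 32851 RefSeq windows of this length, so these matches describe the letters only. Of the 3 starts, only the second Mmp12 start was followed by bases that match GENCODE transcripts (2 of them).

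Neutrophil collagenase, Mmp8, was the metalloproteinase that set classical-monocyte-like cells apart. Control cells had 87.9 CPM (80.9 to 95.3, 581 UMIs) and MC38 cells 343 CPM (338 to 349, 13839 UMIs), 3.91-fold higher (3.59 to 4.25). At least 1 Mmp8 UMI was seen in 40.2% of control and 73.1% of MC38 classical-monocyte-like cells. After each cell was thinned to 1000 UMIs, which left out 6 and 8 shallower cells, the shares were 7.18% and 25.7%, against 0.224% of MC38 B-cell-like cells. B-cell-like cells, which should lack the gene and had median depths of 3514 and 2791.5 UMIs, held 0 control Mmp8 UMIs (limit 3.33 CPM) and 3 in the MC38 library. Neutrophil-like cells stood higher, with 1069.9 CPM (874 to 1296) over 16 control cells and 1937 CPM (1827 to 2051) over 222 MC38 cells. In the control 1 cell held 51 of the 104 UMIs, the level without it was 600.2 CPM, and at a mitochondrial limit of 5% it was 91.5 CPM (6 cells, 3 UMIs). Macrophage-like cells of the MC38 library had 30.6 CPM (25.6 to 36.2), below classical-monocyte-like cells. In the MC38 library 88.3% of all Mmp8 UMIs lay in classical-monocyte-like and 7.46% in neutrophil-like cells.

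Gelatinase B, Mmp9, did not follow Mmp8 into monocytes. Neutrophil-like cells had 1008.2 CPM (818 to 1229) without and 1552 CPM (1455 to 1655) with liver tumors, with a UMI in 81.3% and 91.4% of cells. Classical-monocyte-like cells had 1.97 CPM (1.05 to 3.36) and 2.41 CPM (1.95 to 2.94), and MC38 macrophage-like cells 1.85 CPM. There were 1.25 Mmp8 UMIs per Mmp9 UMI in MC38 neutrophil-like cells and 143 in MC38 classical-monocyte-like cells. Beside the Mmp8 difference, the summed neutrophil markers stood at 125 CPM in control and 5473 CPM in MC38 classical-monocyte-like cells. S100a8, an alarmin shared by neutrophils and monocytes, was at 20.4 and 3759 CPM, which was most of the sum in the MC38 cells but not in the control. Of the other neutrophil markers, the MC38 cells held 0.372 CPM of Ly6g, 0.521 of Camp, 0.918 of Ngp, 13.4 of Retnlg and 15.8 of Cxcr2. S100a9 and Csf3r, also in the sum, were not taken singly. There were 25.5 Mmp8 UMIs per Retnlg UMI in MC38 classical-monocyte-like and 0.0809 in MC38 neutrophil-like cells, so the 2 classes did not hold these RNAs in 1 ratio. The gap was smaller for S100a8, at 70933 CPM beside 1937 CPM of Mmp8 in MC38 neutrophil-like cells. The part of neutrophil RNA in the Mmp8 levels was not tested.

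Mmp12, macrophage elastase, was a gene of macrophage-like cells of the MC38 library. Its level there was 276 CPM (261 to 292, 1194 UMIs), with a UMI in 34.3% of cells, and the 14 control macrophage-like cells held 0 UMIs (limit 64.6 CPM). Kupffer-like cells, named for the macrophages that line liver sinusoids, had 81.1 CPM (52.0 to 121; 24 UMIs in 6 cells) in the 83 MC38 cells and 0 UMIs in the 38 control cells (limit 37.1 CPM). In classical-monocyte-like cells Mmp12 was at 0.908 CPM (6 UMIs) and 4.86 CPM (196 UMIs). Over the whole class the second value is no higher than the 6.14 CPM of MC38 B-cell-like cells, though above the 0.764 CPM of cells like plasmacytoid dendritic cells, so it is not read as more than background. In the 167 MC38 cells of the class with at least 3 UMIs of Arg1 it was 27.6 CPM (21.5 to 34.9), above the B-cell level. Mmp12 was listed in 5.56% of MC38 T-cell-like and 18.4% of MC38 cells like type 2 conventional dendritic cells. The 22 UMIs of MC38 neutrophil-like cells came from 3 cells.

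Mmp14, the membrane-anchored collagenase, was spread over more classes. Control classical-monocyte-like cells had 10.4 CPM (8.12 to 13.2) and MC38 ones 48.7 CPM (46.6 to 50.9), 4.67-fold higher (3.67 to 6.02). MC38 macrophage-like cells had 77.3 CPM (69.2 to 86.1), and the cells that scored between both classes 100.4 CPM (89.9 to 112). Endothelial-like cells had 65.0 CPM (23.8 to 141, 6 UMIs) and tumor-like cells 49.4 CPM (27.6 to 81.5, 15 UMIs), so both intervals overlap those of MC38 classical-monocyte-like and macrophage-like cells and lie above that of control classical-monocyte-like cells. Only 3 tumor-like cells held the gene, however, and 1 cell had 12 of the 15 UMIs. With doublet calls kept, which left the same 66 cells, the level without that cell was 13.5 CPM. The counting interval does not cover this spread between cells. The tumor-like interval lies below that of the cells between both classes. MC38 B-cell-like cells held 0 Mmp14 UMIs (limit 0.969 CPM). Mmp19, a secreted enzyme that cuts basement membrane proteins, was at 18.6 CPM (15.5 to 22.2) in control and 57.2 CPM (54.9 to 59.6) in MC38 classical-monocyte-like cells, 3.07-fold higher (2.56 to 3.72). MC38 macrophage-like cells had a like level, 53.9 CPM (47.2 to 61.3), and MC38 B-cell-like cells 1.94 CPM. Mmp19 was not limited to myeloid classes, however. Hepatocyte-like cells had 61.5 CPM (28.1 to 117, 9 UMIs) in the control and 21.5 CPM (18.2 to 25.3) in the MC38 library, the opposite direction. Platelet-like cells had 180 CPM (7 UMIs) and 22.8 CPM (1 UMI).

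The 2 inhibitors both stood high in tumor-like cells but differed in monocytes. The summed tumor markers were at 2347 CPM in tumor-like cells and at 2392 CPM in MC38 hepatocyte-like cells, so they did not set the 2 classes apart. Timp2 was the only one of the 10 genes that was lower in classical-monocyte-like cells of the MC38 library, at 34.8 CPM (30.4 to 39.6) in the control and 21.7 CPM (20.3 to 23.2) there, a fold of 0.623 (0.538 to 0.724). That call was lost with classes taken from clusters (log2 fold -0.54) and in cells thinned to 1000 UMIs (-0.23). Timp2 was higher in other classes: 190 CPM (177 to 203) in MC38 macrophage-like cells, 165 and 157 CPM in control and MC38 neutrophil-like cells, 185 and 118 CPM in Kupffer-like cells, and 280 CPM (224 to 346) in tumor-like cells. Of the 66 tumor-like cells, 13 held a Timp2 UMI, and 1 cell had 31 of the 85 UMIs. Cells like plasmacytoid dendritic cells held it too, at 159 and 137 CPM. Timp1 was at 181 CPM (136 to 236) in tumor-like cells, with a UMI in 27.3% of them, beside 65.0 CPM (23.8 to 141, 6 UMIs) in endothelial-like and 17.4 CPM (13.7 to 21.8) in macrophage-like cells. The 4 stellate-or-fibroblast-like cells held 3 Timp1 UMIs (227 CPM, 46.9 to 664). Classical-monocyte-like cells had 2 control and 88 MC38 Timp1 UMIs, 0.303 and 2.18 CPM. MC38 B-cell-like cells had 0.969 CPM and MC38 T-cell-like cells 3.41 CPM, so the monocyte level lies within the range of classes that should lack the gene. In the 167 MC38 classical-monocyte-like cells with at least 3 UMIs of Arg1, Timp1 was at 9.60 CPM (6.15 to 14.3).

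Thbs1, fibronectin and versican were the matrix proteins of these cells. Thbs1, which binds matrix and cell receptors and activates TGF-beta, was at 23.8 CPM (20.2 to 27.8) in control and 136 CPM (132 to 139) in MC38 classical-monocyte-like cells, 5.71-fold higher (4.87 to 6.74). MC38 macrophage-like cells had 859 CPM (831 to 887) and the control ones 0 UMIs (limit 64.6 CPM). Platelet-like cells, whose granules are known to hold the protein, had 2004 CPM (1584 to 2501) and 1576 CPM (1226 to 1995), while tumor-like cells held 0 Thbs1 UMIs (limit 9.88 CPM). The 8 platelet markers summed to 12.3 and 26.5 CPM in control and MC38 classical-monocyte-like cells. Of the MC38 ones, 56 lay in cluster 10, described below, with 6 platelet markers among its leading genes. The part of platelet RNA in the Thbs1 levels was not tested.

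Fn1 had a UMI in 89.4% of control and 98.1% of MC38 classical-monocyte-like cells. Its level was 1411 CPM (1382 to 1440) and 2216 CPM (2202 to 2231), 1.57-fold higher (1.54 to 1.60). MC38 macrophage-like cells had 3679 CPM (3622 to 3737). The 2476 CPM of control macrophage-like cells came from 1 cell. Nonclassical-monocyte-like cells, the patrolling subset, had 145 CPM and 279 CPM, and tumor-like cells 105 CPM (72.1 to 149). Vcan was at 115 CPM (107 to 123) in control and 310 CPM (304 to 315) in MC38 classical-monocyte-like cells, 2.71-fold higher (2.51 to 2.91), and 91.0% of all MC38 Vcan UMIs lay in that class. Nonclassical-monocyte-like cells had 15.4 and 16.6 CPM of Vcan (20 and 6 UMIs), so the gap between the 2 monocyte classes was wider than that between the libraries. With classes taken from clusters this did not hold in the MC38 library. There 28 nonclassical cells had 211 CPM beside 290 CPM in classical cells, and the control classical cells had 126 CPM.

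**Figure D1:**
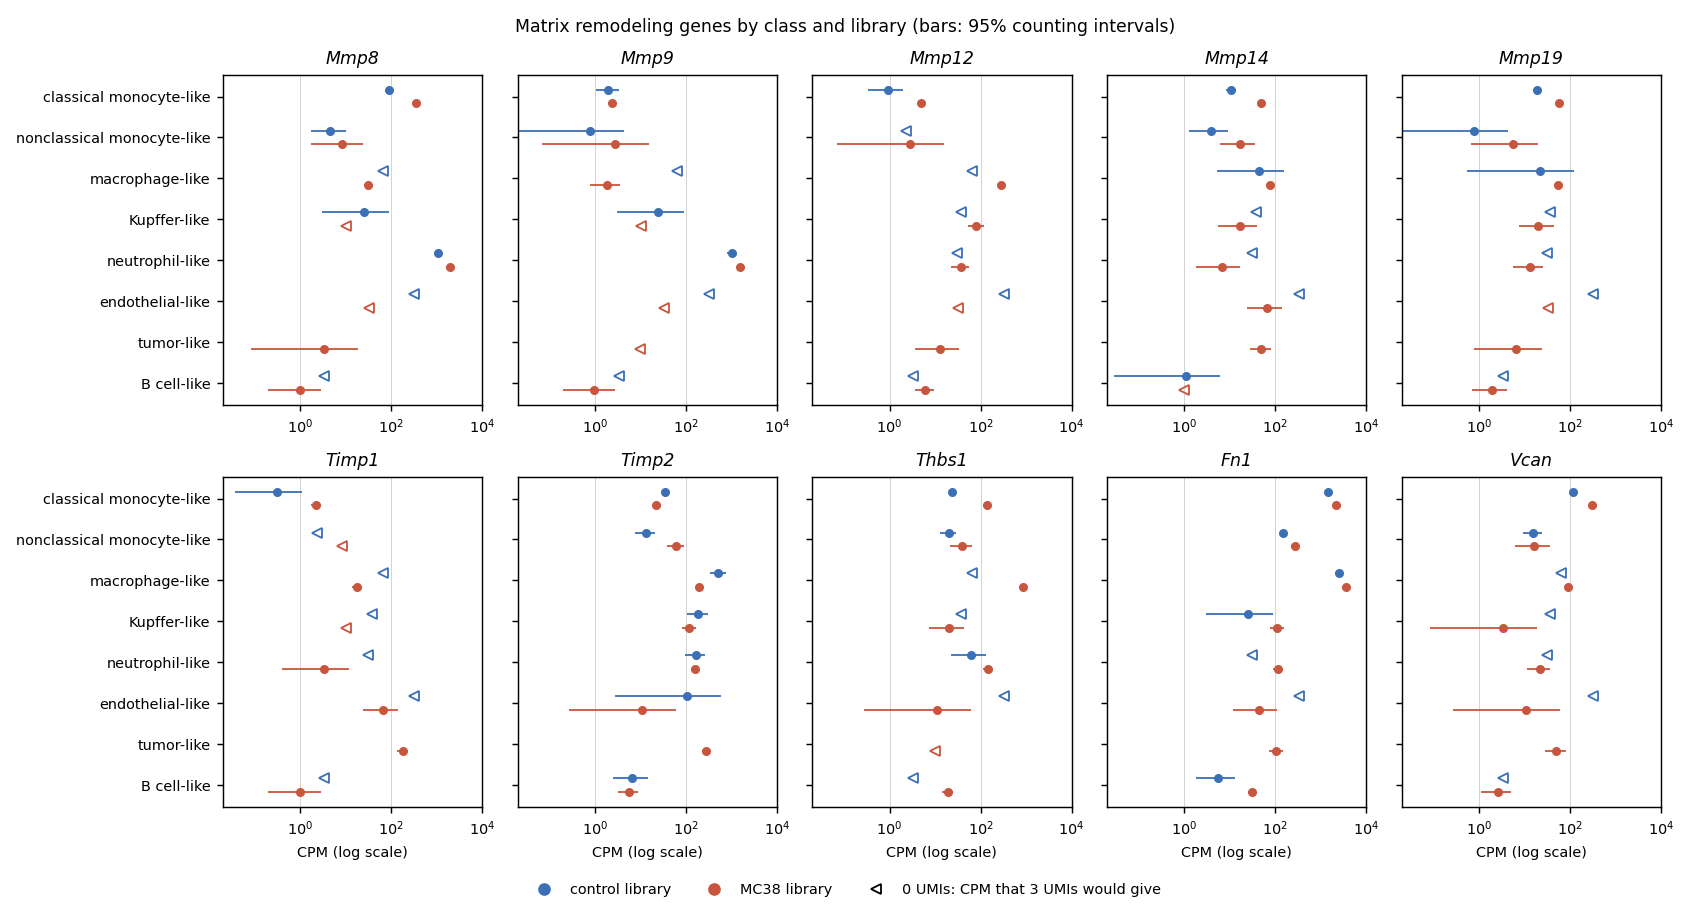
Levels of the 10 genes in CPM (log axis) in 8 classes, with control in blue, MC38 in red, bars for 95% counting intervals and open triangles for the CPM of 3 UMIs where a class held 0. Mmp8 and Mmp9 peak in neutrophil-like cells near 1000 to 2000 CPM, and of these 8 classes Timp1 is highest in tumor-like cells, at 181 CPM.

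Whether the genes moved together with the liver tumor was asked of classical-monocyte-like cells, the only class of monocytes, macrophages, neutrophils, endothelial or tumor cells with at least 50 cells in each library. A gene counted as higher or lower at 1.5-fold or more with an interval that left out no difference. Of the 10 genes, 8 were higher and 1 (Timp2) was lower in the MC38 library, where 9.44% of all genes tested were higher and 13.6% lower. Mmp9 was neither. The median log2 fold was 1.79 over the 10 genes and -0.03 over all genes. Of the 8, Mmp12 and Timp1 stood within the range of classes that should lack them, as given above, and rest on 6 and 2 control UMIs. Member UMIs were also more frequent in MC38 cells of classes that should lack most of them. In T-cell-like cells 8 of 10 genes were higher and 1 (Mmp9) lower, so these counts were not particular to monocytes. Thbs1 (22.5-fold, 5 control UMIs) and Fn1 (18.9-fold) differed more there than in classical-monocyte-like cells, and Mmp14 (3.08-fold) less. In cells like type 1 conventional dendritic cells 7 of 9 genes were higher and 1 lower. In hepatocyte-like cells 1 of 9 was higher and 1 lower. Fn1 was at 5.55 and 31.7 CPM in B-cell-like and at 13.7 and 259 CPM in T-cell-like cells, and Thbs1 at 0 (limit 3.33 CPM) and 19.1 CPM in B-cell-like cells. Thbs1 in cells like type 1 conventional dendritic cells was at 0.418 and 102 CPM, with 182 of the 202 MC38 UMIs in 1 cell. In cells like plasmacytoid dendritic cells it was at 0 and 64.9 CPM, with all 85 MC38 UMIs in 1 cell. The Fn1, Mmp8, Vcan and Thbs1 levels of MC38 classical-monocyte-like cells were above those of MC38 T-cell-like cells, where they were 259, 7.87, 14.2 and 16.8 CPM. The 8 hepatocyte markers summed to 87.7 and 296 CPM in classical-monocyte-like cells. The part of free RNA and of uncalled doublets was not tested.

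Different clusters held most monocytes of each library. Clustering without the 10 genes put 406 of 661 control cells (61.4%) into cluster 0, led by Serpinb10 and Ifitm6, and 1919 of 3355 MC38 cells (57.2%) into cluster 27, led by Lcn2, Chil3, F13a1 and S100a8. Clusters 7, 10 and 20 had markers of dendritic cells, platelets or Kupffer cells among their 10 leading genes and none of their own class. Without those cells, 583 control and 3210 MC38 cells remained, 7 genes were higher and 1 lower (9.33% and 13.4% of all genes), and Fn1 was no longer called, at 1.48-fold. A further 44 MC38 cells, of cluster 9, were led by T cell genes such as Lef1 and Foxp3 and stayed in. The Fn1 call was also lost with a stricter gate (log2 fold 0.55). Cluster 15, led by the interferon-induced genes Cxcl9 and Cxcl10, held 112 cells of each library. Its cells differed too: in the control Ifit3 and Isg15 were among the 10 leading genes, and in the MC38 library Gbp2 and Gbp5. Within it, 6 of 8 genes tested were higher and 1 (Timp2) lower, beside 10.4% and 9.9% of all genes. Thbs1 was at 17.3 and 74.5 CPM, 4.30-fold higher, and Mmp14 at 53.8 and 165 CPM, 3.06-fold higher. Mmp8 was at 68.4 and 123 CPM, 1.80-fold higher, and Vcan at 143 and 167 CPM, 1.17-fold, was neither. Mmp8 and Vcan therefore differed less between libraries within this cluster than over the whole class. In cluster 27, Mmp8 was at 482 CPM and Vcan at 387 CPM, beside 114 and 138 CPM in cluster 0 of the control. Cluster 26, with 278 MC38 cells led by Cd14, Cxcl2 and Il1b, had the most Thbs1, at 793 CPM beside 72.1 CPM in cluster 27, and 26.5 CPM of Mmp12. Cluster 24, with 646 MC38 cells led by Htra3 and Axl, had 74.3 CPM of Mmp8 and 75.6 CPM of Mmp14, so the genes did not share 1 order over the clusters.

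**Figure D2:**
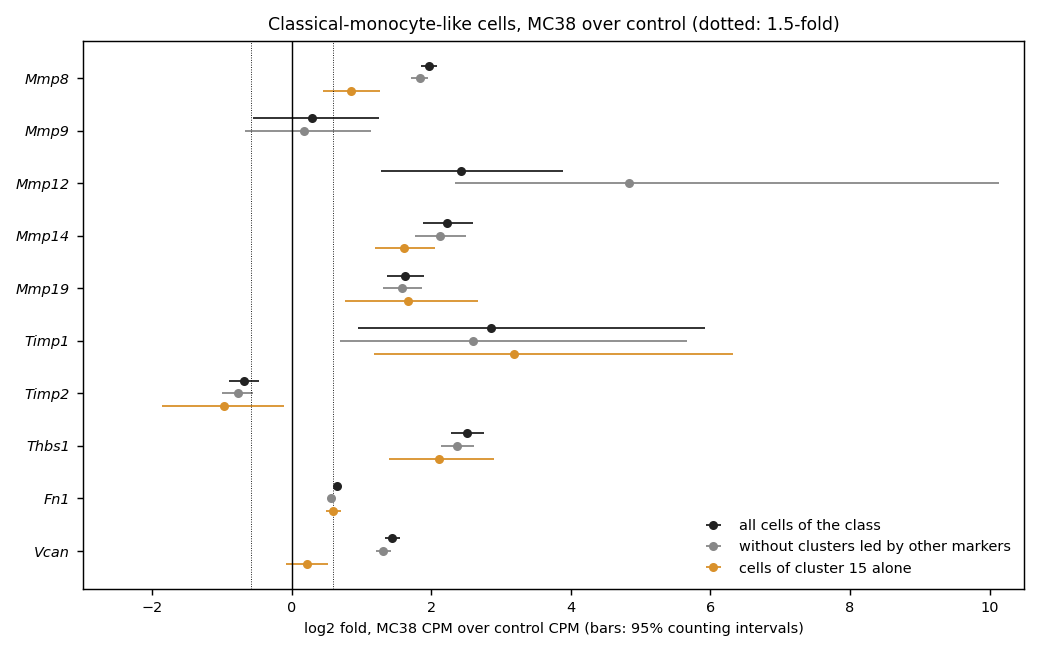
Log2 fold of MC38 over control CPM in classical-monocyte-like cells for each gene, with 95% counting intervals: all cells (black), without clusters led by markers of other classes (grey) and cluster 15 alone (orange; genes under 10 UMIs not drawn), dotted lines at 1.5-fold. Timp2 lies below 0 in all 3 sets, and Thbs1 lies at 2.51, 2.37 and 2.10.

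Along the marker scores, from most monocyte-like to most macrophage-like, the genes formed opposite slopes. MC38 cells of both classes and those between them were cut into 6 bins of 663 or 664 cells by macrophage minus monocyte score, with median depths of 11197 to 11659 UMIs. Mmp8 went down over the bins, at 638, 469, 344, 193, 106 and 45.6 CPM. Vcan went the same way, at 508, 370, 302, 224, 167 and 103 CPM. Mmp14 went up bin by bin, at 19.8, 29.4, 43.8, 69.1, 78.4 and 86.3 CPM. Its slope began among cells gated as monocytes, since bins 1 to 4 held no macrophage-gated cell. Mmp12 stayed between 1.30 and 13.3 CPM in bins 1 to 5 and reached 195 CPM in bin 6. Timp2 (13.3 CPM in bin 1, 30.8 in bin 5, 123 in bin 6) and Thbs1 (92.7, 257 and 589 CPM) were also highest in bin 6. Mmp19 had no slope, between 47.7 and 64.1 CPM. Fn1 went from 2746 CPM down to 1728 CPM in bin 5 and stood at 2791 CPM in bin 6. Bin 6 held all 370 macrophage-gated cells. Among them were 58 cells of cluster 28, described below, which held most of the Fn1 and Thbs1 UMIs of that class. The bin 6 levels of Fn1, Thbs1 and Timp2 thus do not stand for all cells of the bin.

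The control library had at least 50 cells in bins 1 to 4, with 249, 151, 119 and 107 cells. Mmp8 there went from 146 to 99.4, 42.2 and 23.4 CPM, and Vcan from 176 to 134, 92.9 and 21.8 CPM, below the MC38 level in each bin. Mmp14 went from 0.838 to 6.72, 14.4 and 27.6 CPM, also below the MC38 level in each bin. Both libraries thus had the same order of bins for these 3 genes at different levels. Fn1 in the control went from 1969 to 607 CPM over the 4 bins, a wider range than the 2746 to 1883 CPM of MC38 cells. Timp2 was at 36.4, 34.9 and 49.8 CPM in control bins 1 to 3, above the 13.3, 14.0 and 22.0 CPM of MC38 cells. In bin 4 the Timp2 levels were 22.6 and 26.3 CPM.

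**Figure D3:**
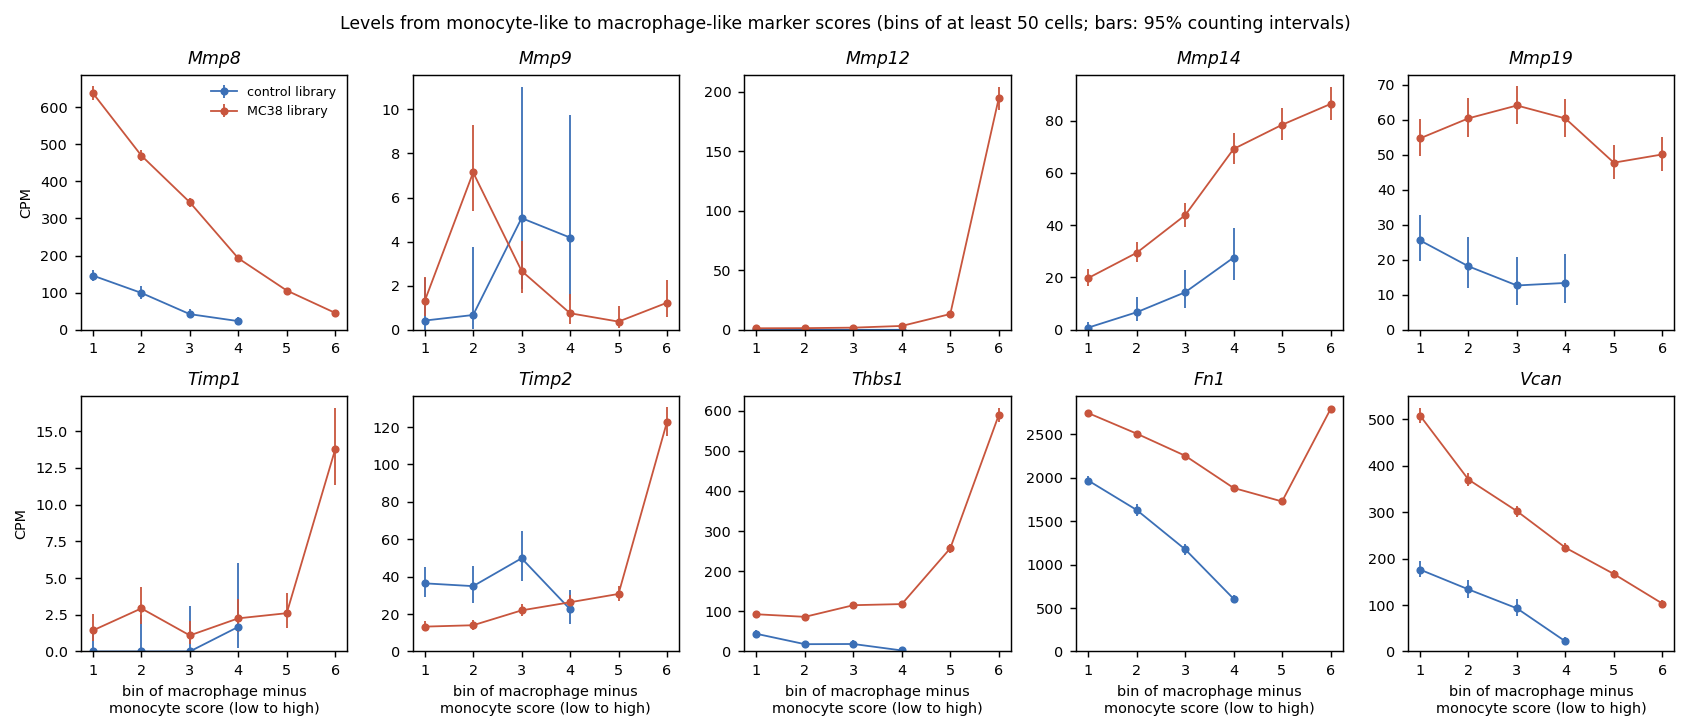
CPM of each gene (vertical axis) in 6 bins of macrophage minus monocyte marker score (horizontal axis), control in blue (4 bins of at least 50 cells) and MC38 in red, with 95% counting intervals. Mmp8 and Vcan go down and Mmp14 goes up along the bins in both libraries, and Mmp12 and Thbs1 reach 195 and 589 CPM in the last MC38 bin.

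Macrophage-like cells were set against classical-monocyte-like cells within the MC38 library. Over all 370 macrophage-like cells 6 genes were higher (Mmp12, Mmp14, Timp1, Timp2, Thbs1 and Fn1) and 2 lower (Mmp8 and Vcan), where 17.7% of all genes were higher and 7.46% lower. The Mmp12 difference was 56.8-fold (48.8 to 66.5) and the Timp2 difference 8.75-fold (7.95 to 9.64). Mmp8 was at 0.0890 and Vcan at 0.294 of the monocyte level. The 370 cells were no uniform group, however. In cluster 28, with 58 cells, none of the macrophage markers was among the 10 leading genes, which included Alox15, Prg4, Saa3, Serpinb2 and Pf4. Gata6, which is known for its role in macrophages of the peritoneal cavity, had a UMI in 62.1% of these cells and 0 UMIs in the macrophage-like cells of clusters 9, 20, 24 and 26. These 58 cells had a median depth of 17861 UMIs.

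The 58 cells of cluster 28 carried most of the fibronectin and thrombospondin of the class. Fn1 was at 9042 CPM (10233 of the 15898 UMIs of the class) and Thbs1 at 2188 CPM (2476 of 3711 UMIs). Timp2 was at 466 CPM, Mmp19 at 105 CPM and Timp1 at 41.5 CPM, each the highest of the 5 clusters with at least 30 macrophage-like cells. Mmp12 and Mmp14 were the lowest there, at 11.5 CPM each. In the other 4 clusters Mmp12 was at 79.9 to 723 CPM and Mmp14 at 63.1 to 145 CPM. Without cluster 28, and without the monocyte clusters named above, 5 genes were higher and 3 lower (14.5% and 8.24% of all genes). Fn1 then turned from 1.66-fold higher to 0.793 of the monocyte level, which is no call, and Mmp19 became lower, at 0.615. Mmp12 went from 56.8-fold to 75.3-fold, Thbs1 from 6.33-fold to 2.80-fold and Timp2 from 8.75-fold to 4.22-fold. The Fn1 call over all cells was also lost with a mitochondrial limit of 5% (log2 0.57), in thinned cells (0.36) and with each cell weighted the same (0.22), and the last setting ended the Mmp14 call (0.51).

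Among the other 4 clusters, cluster 26 (99 cells, median 10435 UMIs) was led by Spp1, Gpnmb, Hilpda and Ccl2. It had 926 CPM of Thbs1, 3051 CPM of Fn1 and 396 CPM of Mmp12 together. Cluster 20 (108 cells, median 1345.5 UMIs) was led by Vcam1, Mmp13 and C1qa, with Mmp12 at 723 CPM and Mmp14 at 145 CPM but Thbs1 at 34.4 CPM and Fn1 at 484 CPM. The Kupffer marker Slc40a1 was also among its leading genes. Over all cells of cluster 20 the mean macrophage and Kupffer scores were close, at 0.377 and 0.355. Cluster 24 (56 cells, median 12499 UMIs) was led by C1qa, C1qb and C1qc and had 79.9 CPM of Mmp12 and 99.5 CPM of Thbs1. Cluster 9 (39 cells, median 19011 UMIs) had Mmp12 at 434 CPM, and 59.0% of its cells held a UMI of the T cell gene Cd3e, so doublets may remain in it. High Mmp12 thus came with high Thbs1 in cluster 26 and with low Thbs1 in cluster 20.

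**Figure D4:**
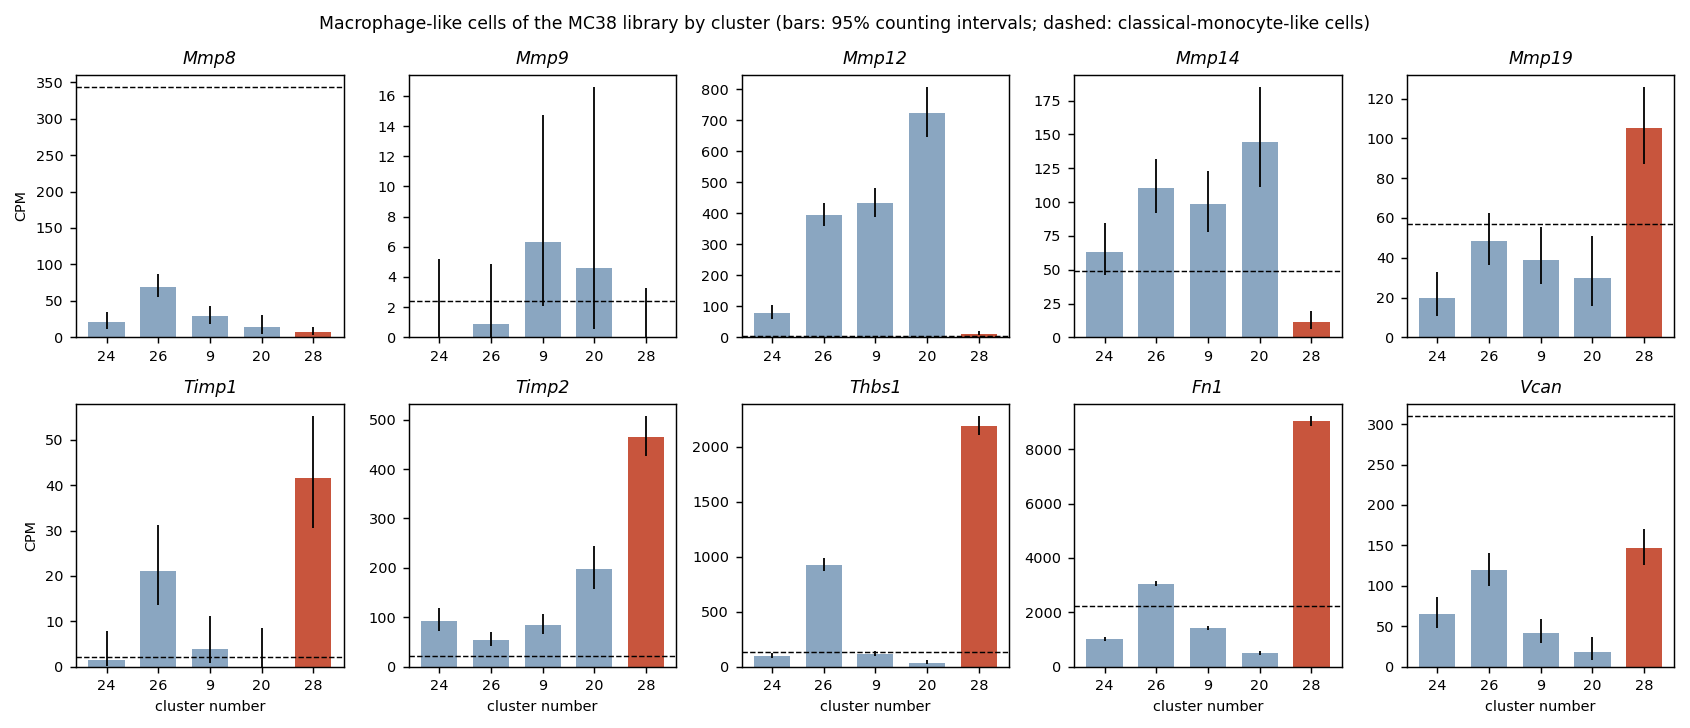
CPM of each gene in MC38 macrophage-like cells of 5 clusters, with 95% counting intervals and a dashed line at the level of MC38 classical-monocyte-like cells. Cluster 28 (red) has 9042 CPM of Fn1 and 2188 CPM of Thbs1 but 11.5 CPM of Mmp12.

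The same genes were split by Arg1, arginase 1, a marker of alternatively activated macrophages and 1 of the 8 genes of the macrophage score. Among MC38 macrophage-like cells of at least 5000 UMIs, 160 had at least 3 Arg1 UMIs and 81 had fewer. In the first, 8 of 9 genes tested were higher and none lower, beside 9.26% and 5.36% of all genes. Cluster 28 lay mostly on the high side, so the split was repeated without it, on 105 and 79 cells. There 7 of 9 genes were higher and none lower (5.45% and 4.6% of all genes). Thbs1 was at 538 and 130 CPM, 4.15-fold higher (8.91-fold with cluster 28), and Fn1 at 2471 and 735 CPM, 3.36-fold higher (5.87-fold with it). Mmp12 was at 444 and 116 CPM, 3.81-fold higher. Timp2, at 88.2 and 81.7 CPM, no longer differed by the rule, and Mmp14, at 118 and 82.6 CPM, was neither in both splits.

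Few control macrophage-like and neutrophil-like cells passed the mitochondrial limit, so their levels were also taken with no limit, which admits damaged cells. With it, 156 control and 566 MC38 cells were macrophage-like. Thbs1 was at 7.47 CPM (0.905 to 27.0) and 781 CPM (757 to 805), and Fn1 at 441 CPM and 3362 CPM (3312 to 3412). In the control, 115 of the 118 Fn1 UMIs came from 1 cell, and without it the level was 11.9 CPM. Mmp12 was at 44.8 CPM (23.2 to 78.3) and 310 CPM (295 to 326). Mmp14, at 82.2 CPM (51.5 to 124) and 89.7 CPM (81.7 to 98.2), and Timp2, at 176 CPM (129 to 233) and 191 CPM (179 to 203), had overlapping intervals. Neutrophil-like cells then numbered 56 and 386. Their Mmp8 was at 791 CPM (679 to 916; 588 CPM without the cell of 51 UMIs) and 1678 CPM (1599 to 1760), while Mmp9, at 1329 CPM (1183 to 1489) and 1453 CPM (1379 to 1530), had overlapping intervals.

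The wider set of matrix genes was taken from 9 lists of 109 genes. In classical-monocyte-like cells 61 had enough UMIs, of which 18 were higher and 8 lower with MC38, beside 9.44% and 13.6% of all genes, with a median log2 fold of 0.09. The number lower is near the share over all genes. The highest were Lcn2, a lipocalin, at 8.02 and 860 CPM, Ecm1, a secreted matrix protein, at 24.7 and 161 CPM, and the cross-linking enzyme Tgm2, at 9.98 and 71.1 CPM. The lowest were Serpinb2, an inhibitor of plasminogen activators, at 17.4 and 1.74 CPM, Mmp28, at 1.66 and 0.0496 CPM (11 and 2 UMIs), and the proteoglycan Sdc3, at 67.5 and 15.1 CPM. Of the receptors for fibronectin, thrombospondin and collagen, 1 of 11 tested was higher and 5 were lower, while 5 of 8 matricellular and matrix glycoproteins were higher and none lower (9.44% and 13.6% of all genes).

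Between the 2 classes of the MC38 library, 34 of 64 listed genes were higher in macrophage-like cells and 6 lower, beside 17.7% and 7.46% of all genes. Without clusters led by other markers, 24 of 61 were higher and 11 lower, beside 14.5% and 8.24%. Among the highest were Serpinb2, at 152 against 1.74 CPM and a leading gene of cluster 28, and the collagenase Mmp13, at 48.4 against 0.620 CPM. The lowest were the granule proteases Elane, at 0.926 against 68.6 CPM, and Ctsg, at 0.463 against 43.6 CPM, and Lcn2, at 30.6 against 860 CPM. Mmp8, which is also a granule protein, had the same direction as Elane, Ctsg and Lcn2 in this comparison. By level, the listed genes of highest CPM were Tgfbi, S100a10 and Anxa2 in classical-monocyte-like cells, Srgn, Slpi and Tgfbi in macrophage-like cells and Lcn2, Srgn and Slpi in neutrophil-like cells. They were Sparc, Col4a1 and Anxa2 in endothelial-like and S100a10, Anxa2 and Sparc in tumor-like cells.

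Likeness of pattern was taken over 25 class-by-library profiles, as a Pearson correlation on log2(CPM + 10), for 11329 genes. These points share libraries and depth, so the values are descriptions. Mmp8 was most like Cldn15 (0.97), Elane (0.96) and Celsr3 (0.95), and Mmp9 most like Ngp (0.90, a marker of the neutrophil score), Stfa2l1 (0.89) and Ltf (0.89). Mmp12 was most like Clec4n (0.83), Hilpda (0.83) and Syngr1 (0.82), Mmp14 like Htra3 (0.83), Myof (0.83) and Ptgfrn (0.83), and Mmp19 like Gab1 (0.88), 0610040J01Rik (0.86) and Tmem205 (0.84). Timp1 was most like Angptl2 (0.94), Pdpn (0.93) and Map1b (0.93), while Timp2 had no gene above 0.78 (Ctsl). Thbs1 was most like Olr1 (0.86), and Fn1 and Vcan were most like each other (0.88). Within the 10 genes, Mmp8 and Mmp9 correlated at 0.65 and Mmp8 and Mmp12 at 0.24.

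Some genes overlap others in the annotation, and the sources used here do not say if counting used the strand. Timp1 (chrX:20870166-20874735) overlaps Syn1, Thbs1 (chr2:118111876-118127133) overlaps Gm29233, Fn1 (chr1:71585520-71653200) overlaps Apol7d, and Mmp19 (chr10:128790910-128800824) overlaps Tmem198b, each on the opposite strand. Mmp12 overlaps Mmp1b, which had 0 UMIs in both libraries, and Timp2 (chr11:118301069-118355740) overlaps Cep295nl on the same strand. Mmp8, Mmp9 (chr2:164940780-164955850) and Mmp14 (chr14:54431612-54445364) overlap no other annotated gene, and the 2 genes that overlap Vcan (chr13:89655312-89742509) have no row in the count tables. All positions are those of GENCODE M21 on GRCm38.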

How the data were processed

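The deposited files hold raw counts of UMIs per gene and barcode, per the file headers, from 10x 5′ libraries of liver mononuclear cells (1 library per group, 3 pooled mice each). The submitters' processing notes name Cell Ranger 2.2, STAR, Seurat 2.3.4, R 3.6.0, bcl2fastq and GRCm38.p6, with no roles given; the matrix header names software 3.0.2.

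From these, Python 3.11.15 (scanpy 1.11.5, scipy 1.17.1) dropped barcodes under 200 genes or over 10% mitochondrial UMIs, and removed scrublet doublet calls (569 and 1727). Marker values (log of UMIs per 10000, divided by their 0.9 quantile and limited to 1) were averaged per class. Cells joined their best class from a score of 0.25 with a lead of 0.1; 424 control and 1112 MC38 cells took none. Clusters (Leiden) left the 10 genes out. UMIs were summed per class and library; genes needed 10 UMIs in both groups together. The scripts were tested on simulated counts. Promoter letters came from RefSeq.

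Named genes were all 10 members, the 3 highest and 3 lowest called list genes, the 3 list genes of highest level per class, and the 3 genes most like each member. 1 gene that this rule names is not reported here. Genes and lists were chosen with earlier results of these data known. Gate thresholds (3 settings were looked at), the cells between classes, the score bins, the clusters within classes, the Arg1 split and the added alternatives were chosen after values were seen. Alternatives were other mitochondrial limits, gene minimums, gates, classes from clusters, doublet calls kept, thinning, scaling, cell weights and UMI minimums.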

Additional observations from a re-analysis of the deposited data

How the results depend on the processing

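Over 14 alternative settings, 98 of the monocyte log2 folds (MC38 over control) stayed within the counting interval of the main value and 30 moved outside it. For macrophage-like over classical-monocyte-like cells, 78 stayed, 49 moved and 3 reversed. With classes taken from clusters, 0 genes were lower in the monocyte comparison (1 in the main one) and 4 in the macrophage comparison (2 in the main one). There Mmp12 (-0.82) and Mmp14 (-2.17) reversed. The macrophage class was then cluster 28 alone, and the monocyte class took in all cells of clusters 24 and 26. Mmp12 was at 15.3 CPM in that macrophage class and at 27.1 CPM in that monocyte class, beside 4.86 CPM in the main monocyte class. Mmp14 was at 12.5 and 56.5 CPM, beside 48.7 CPM in the main monocyte class. Fn1 reversed (-0.33) without clusters led by other markers. In cells thinned to 1000 UMIs, 0 genes were lower in the monocyte comparison. Mmp12 was then no longer called higher (1.55, -1.15 to 6.95), and Timp1 fell under the UMI minimum. Scaling by the median ratio, whose log2 was -0.06 and -0.02 in the 2 comparisons, changed no call. In the macrophage comparison Mmp9 was called higher with a mitochondrial limit of 5% (1.76) and with each cell weighted the same (0.90). No paired analysis was possible because each group has 1 library. With 1 library per group, differences between libraries and between conditions cannot be told apart, and the nonclassical-monocyte-like, macrophage-like, neutrophil-like, endothelial-like and tumor-like classes had too few cells in a library for a fold.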

Other observations

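In the control library T-cell-like cells held more Mmp9 UMIs than the 16 neutrophil-like cells with their 98, a pattern noticed after values were seen. There were 330 UMIs (49.2 CPM) in 731 control and 37 UMIs (9.71 CPM) in 450 MC38 T-cell-like cells. In the control, 153 cells (20.9%) had at least 1 Mmp9 UMI, and the other 578 had none, at like median depths of 6522 and 6442 UMIs. Zbtb16, a transcription factor of innate-like T cells, had a UMI in 43.8% of the first and 18.7% of the second. Cxcr6, a receptor of liver-resident lymphocytes, was in 98.0% and 61.1%, and Klrb1c, a natural killer receptor, in 74.5% and 28.2%. Cd8a was in 3.92% and 32.2%. S100a8, abundant in neutrophils, was in 3.27% and 1.73%. In the MC38 library only 20 T-cell-like cells had an Mmp9 UMI, with a median depth of 11131 UMIs against 5312.5 for the other 430. There Zbtb16 was in 20.0% and 3.26%, Klrb1c in 45.0% and 15.1%, Cd8a in 30% and 33.0%, and S100a8 in 30% and 11.4%, so the Cd8a difference of the control was not seen.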
